A study of Mus musculus with 8 samples.

Results

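Lkb1 is a serine/threonine kinase, encoded by Stk11, that activates AMPK and a family of AMPK-related kinases and thereby adjusts growth, metabolism, polarity and gene transcription to the energy state of the cell. Dendritic cells (DCs) take up antigen, carry it to T cells and set the kind of T cell response that follows, and those of the spleen sample antigen from the blood. Among the kinases under Lkb1, the salt-inducible kinases hold back the CREB coactivators that answer to cyclic AMP, and AMPK holds back biosynthesis and favours the oxidation of fuels.

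Splenic DCs with and without Lkb1 were compared on 6 of the 8 Affymetrix Mouse Gene 2.0 ST arrays of the study, on which each probe set measures a transcript. The 3 arrays of WT DCs came from Lkb1f/f mice, which carry floxed alleles and no Cre. The 3 arrays of Lkb1-deficient DCs came from Cd11cCreLkb1f/f mice, in which Cre under the promoter of the integrin gene Cd11c removes the floxed Lkb1 alleles. All mice were 8 weeks old, on a C57BL/6 background and untreated, and the DCs were sorted from the spleen. The Cd11c promoter is active in DCs and also in some macrophages and lymphocytes, and because the WT mice lack Cre, an effect of Cre itself and of the deletion cannot be told apart. The labels do not say how many mice gave RNA to an array.

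The question was which gene classes other than adhesion, maturation and inflammation differ between these DCs. Probe sets were described when they had a single gene symbol and a mean log2 value above 5 over the 6 arrays, which left 9459 of 41345 probe sets and 9127 genes of 22180. For each, the Lkb1-deficient minus WT difference in the log2 value was taken within each replicate number (1, 2 and 3), so a difference of 1 is a doubling. Values below are given in the order of the replicate numbers, and means of the 3 differences with their SD (n = 3). A gene is said to have risen or fallen when its adjusted p was under 0.05 in limma, with replicate numbers entered as a block and the fit made over all 41345 probe sets. Precision is limited by the number of arrays.

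The arrays were first checked against their labels. Stk11 had log2 values of 6.73, 6.83 and 5.96 in WT DCs and 6.67, 6.41 and 5.55 in Lkb1-deficient DCs. The groups overlapped and the difference of −0.30 ± 0.21 did not pass the test (adjusted p = 0.458), and where the probes of Stk11 lie relative to the floxed exons is not given in the sources used here, so this value does not check the genotype. Same-numbered arrays resembled each other beyond genotype. Xist, the RNA of the inactive X chromosome, was at 10.68 and 10.53 on the number 2 arrays and at 1.69 to 3.30 on the other 4, whereas the Y-linked Eif2s3y was at 3.03 and 3.11 on the number 2 arrays and at 7.06 to 8.08 on the others. The array medians likewise fell in pairs, at 4.64 and 4.59 on number 1 and at 4.09 and 4.07 on number 2, with number 3 the lowest.

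Markers of DCs were high on every array. The mean of 20 DC-defining genes, all above 5, was 7.99 to 9.61 on the WT arrays and 8.02 to 9.43 on the Lkb1-deficient arrays. Itgax, which encodes Cd11c, differed by 0.06 ± 0.18, Zbtb46, a transcription factor of conventional DCs, by 0.24 ± 0.28, and Xcr1, a receptor of CD8+ DCs, by −0.19 ± 0.05. Cd4 and Dtx1, which mark the CD4+ subset, were lower in all 3 numbers, by −1.15 ± 0.50 and −1.14 ± 0.42, though neither passed the test (adjusted p = 0.164 and 0.13). Esam, another marker of that subset, differed by −0.16, −0.19 and 0.39, with values of 4.24 and 4.62 on the number 3 arrays. Itgam, which encodes CD11b, was higher in all 3 numbers, by 0.13, 0.39 and 0.29. Irf4 and Sirpa of the same list were lower in all 3, with means of −0.36 and −0.20, and did not pass the test. Of the 20 genes, 6 were higher and 10 lower in all 3 numbers, so these markers did not all go one way. Fewer DCs of a subset and less RNA per cell cannot be told apart in sorted bulk RNA.

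Other cell types were also represented. Neutrophil markers had a list mean of 8.12 and 7.92 on the number 3 arrays and of 4.01 to 5.65 on the other 4, so they followed the number and not the genotype. B cell markers had list means of 5.91 to 8.07, with a median difference of 0.26, −0.55 and −0.65 in the 3 numbers. T cell markers lay lower, at 4.75 to 5.81, with a median difference of 0.09. Of these lists and those of plasma cells, NK cells, macrophages, erythroid cells and stroma, no gene passed the test, and among plasmacytoid DC markers only Cox6a2 did. The part of these cells in the results below was not tested.

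**Figure D1:**
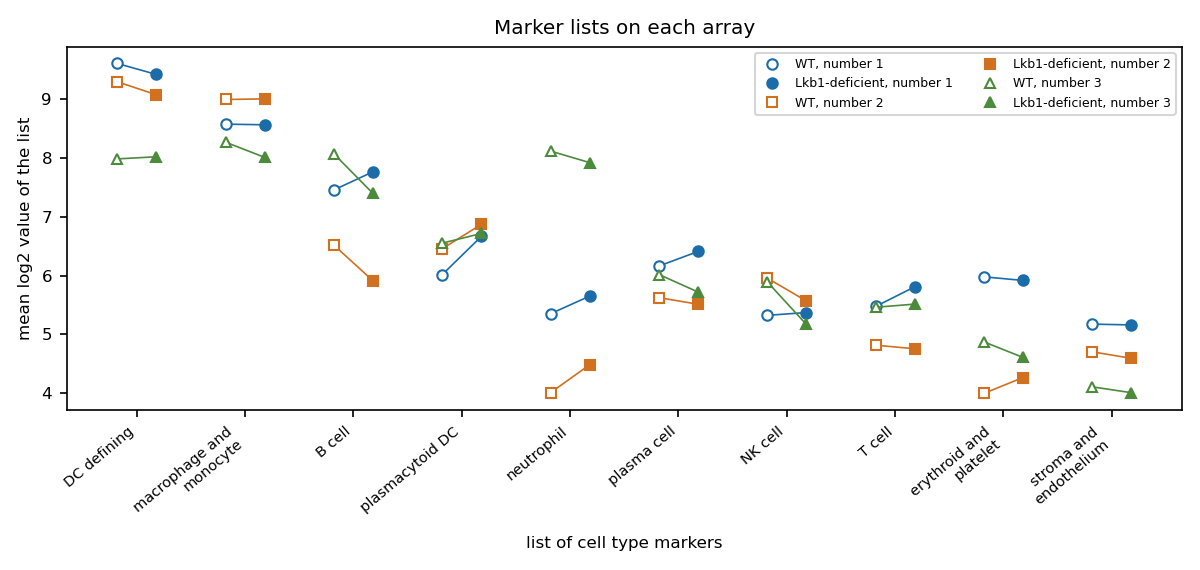
Mean log2 value of each list of cell type markers on each of the 6 arrays, with WT as open and Lkb1-deficient as filled symbols and a line joining the arrays of one replicate number. DC-defining genes lie at 7.99 to 9.61 throughout, and neutrophil markers are high only on the number 3 arrays, at 8.12 and 7.92.

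More probe sets rose than fell in Lkb1-deficient DCs. Over all probe sets, 85 rose (0.206%) and 10 fell (0.0242%). At an unadjusted p under 0.05 the order was the other way, with 2154 higher and 2570 lower, and it turned to 2768 and 1954 when array medians were aligned. Among the genes above 5, 68 rose (0.745%) and 6 fell (0.0657%). Of their probe sets, 11 of 69 that rose had a WT mean of 5 or less and 1 of 6 that fell had such a mean in Lkb1-deficient DCs, so these were described only through the group in which they were high. Of the 75 in all, 44 had groups that did not overlap, as did 102 of the 9459 probe sets (1.08%). These calls rest on the block. Without it only 3 of the 75 passed, those of Scin, Ramp3 and Mmp25, and 4 of all probe sets did. Every other rise or fall among the 75 was lost, because the median standard error went from 0.11 to 0.63. With any of the 3 numbers left out none passed, and with 16 added to the linear values, which damps low signals, 12 of all probe sets rose and none fell. When only the 9459 probe sets above 5 were fitted and adjusted, 674 genes passed as higher (7.38%) and 376 as lower (4.12%).

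Size and consistency gave a similar split. In every number, 208 genes were at least 1.5-fold higher (2.28%) and 48 at least 1.5-fold lower (0.526%), whereas 2500 (27.4%) were higher and 1920 (21%) lower by any amount in all 3. The median gene differed by 0.02, and the central 90% of genes lay between −0.36 and 0.49. Across genes, which are not independent replicates, the differences of numbers 1 and 2 correlated at 0.73, those of 1 and 3 at 0.66 and those of 2 and 3 at 0.64. On average, 134 genes were at least 2-fold higher and 28 at least 2-fold lower.

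Of the genes past the test, those with the largest increases encoded proteins of quite different kinds. Scin, which severs and caps actin filaments, led with a 13.1-fold increase (3.71 ± 0.21, adjusted p = 0.0102). It was followed by Ramp3, which modifies receptors of peptide hormones, and by Mmp25, a membrane-anchored metalloproteinase, with 9.89-fold each. Next were Nrp2, a receptor of semaphorins and growth factors (6.96-fold), Tnfsf4, the ligand OX40L (6.06-fold), Ccl22, a ligand of Ccr4 (5.64-fold), and the serotonin receptor gene Htr7 (5.52-fold). Gnb4, a G protein beta subunit, and Efnb2, a ligand of Eph receptors, each rose 5.11-fold. Socs2, a feedback inhibitor of cytokine and growth hormone signalling, Dab2, an endocytic adaptor, and Cd63, a tetraspanin of late endosomes, rose 4.91-, 4.68- and 4.6-fold. The 12 genes had adjusted p values of 0.0102 to 0.0334 and non-overlapping groups. The WT means of Scin, Ramp3, Nrp2, Tnfsf4, Htr7 and Efnb2 were below 5, from 3.94 for Tnfsf4 to 4.75 for Efnb2, so their folds are over a low level and less certain in size.

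Only 6 genes fell. Scn3a, an alpha subunit of voltage-gated sodium channels, fell 4.92-fold and Mmp12, the macrophage elastase, 4.81-fold. The mean of Scn3a in Lkb1-deficient DCs was 4.61, below 5, so its fold is less certain in size. Adgrl3, an adhesion G protein-coupled receptor (latrophilin), fell 3.31-fold, Arhgap6 3.14-fold, Hpgds, the prostaglandin D synthase of blood cells, 2.37-fold, and Slc12a2, the sodium-potassium-chloride cotransporter, 2.13-fold. Their adjusted p values ran from 0.0177 to 0.0492. Other genes with large decreases in the mean did not pass the test, among them Gm6637 (3.99-fold lower), Cyp4f37 (−1.83 ± 0.59), the cadherin-related gene Cdhr3 (−1.58 ± 0.41), Mmp9 (−1.33 ± 0.81), the immediate-early gene Egr3 (−1.31 ± 0.70) and the growth factor gene Bmp2 (−1.30 ± 0.82). Mmp9 and Bmp2 differed by only −0.42 and −0.35 in number 3.

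**Figure D2:**
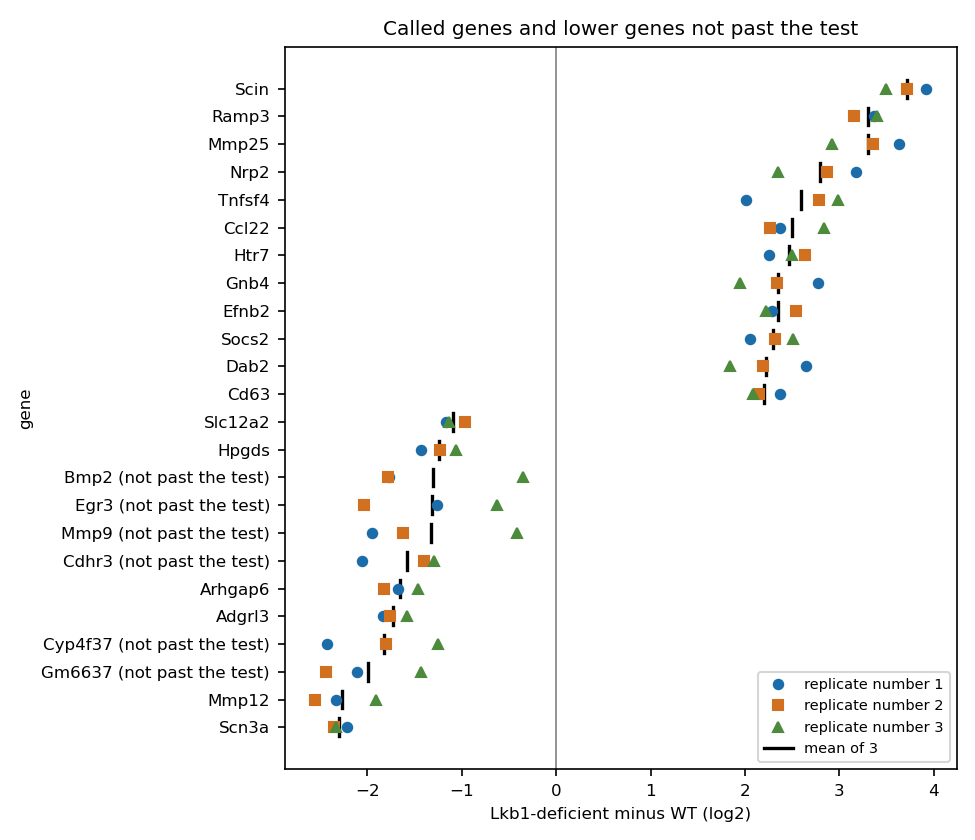
Lkb1-deficient minus WT difference in the log2 value within each replicate number (symbols) and its mean (bar) for the 12 largest increases past the test, the 6 genes that fell and 6 lower genes that did not pass. Scin lies at 3.49 to 3.92 in the 3 numbers, and the decreases of Mmp9 and Bmp2 are small in number 3.

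To place these genes, 55 classes of related genes were counted, holding 2814 of the genes measured, 29 of the 74 called genes and 96 of the 256 genes past 1.5-fold in every number. In 42 classes the median difference was within 0.1 of 0, and a typical class held a few members with large differences among many near the median gene. Over all genes, 27.4% were higher and 21% lower in all 3 numbers, and counts of this kind below are to be read against those shares. In 10 classes no member was 1.5-fold apart in every number.

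Genes of receptor signalling held several of the largest differences. Of 58 G protein-coupled receptor genes measured, chemokine receptors left aside, 2 rose and 1 fell, 7 were at least 1.5-fold higher and 4 at least 1.5-fold lower in every number, and the class median was 0.01. Htr7, a receptor of serotonin that couples to the stimulatory G protein, had log2 values of 5.09, 5.16 and 3.63 in WT DCs and 7.35, 7.80 and 6.13 in Lkb1-deficient DCs. Every Lkb1-deficient array was above every WT array, and the rise was 2.26, 2.64 and 2.50 in the 3 numbers (adjusted p = 0.0177). Adgrg6, an adhesion receptor that signals through cyclic AMP in Schwann cells, went from 7.21, 6.32 and 5.48 to 8.78, 7.89 and 7.11, and although the groups overlapped, its differences of 1.57, 1.57 and 1.63 were nearly equal (adjusted p = 0.0305). Adgrl3 went the other way, from 8.63, 7.97 and 6.16 to 6.79, 6.21 and 4.57 (adjusted p = 0.0305). The delta opioid receptor gene Oprd1 was higher by 2.07, 1.88 and 0.73 and did not pass (adjusted p = 0.164).

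The partners of these receptors gave 2 calls among 35 genes. Ramp3 had log2 values of 4.99, 5.09 and 3.88 in WT DCs and 8.35, 8.25 and 7.28 in Lkb1-deficient DCs. The groups lay far apart, and the rise of 3.31 ± 0.13 passed the test with the block (adjusted p = 0.0102) and without it (adjusted p = 0.00162). Calcrl, the receptor that Ramp proteins carry to the cell surface, differed by −0.14 ± 0.32 and the related Ramp1 by −0.33 ± 0.09, both looked up after the value of Ramp3 was seen. Gnb4 rose from 6.20, 5.85 and 5.30 to 8.97, 8.19 and 7.24 (adjusted p = 0.0334), again without overlap. Grk5, a kinase that desensitises these receptors, and Gnai3, an inhibitory alpha subunit, were higher by 0.61 ± 0.10 and 0.51 ± 0.12 and did not pass.

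Cyclic nucleotide signalling held 30 genes, with 1 rise, no fall and 4 genes at least 1.5-fold higher in every number, but 11 were higher and 11 lower in all 3 numbers (36.7% each) and the median was 0.00. Adcy6, an adenylyl cyclase that makes cyclic AMP, had log2 values of 7.18, 5.50 and 5.06 in WT DCs and 9.13, 7.20 and 6.73 in Lkb1-deficient DCs. Groups overlapped because number 1 was high in both, and the rise was 1.96, 1.69 and 1.67 (3.42-fold, adjusted p = 0.0305). The phosphodiesterase genes Pde3b and Pde7b, whose products break cyclic AMP down, were higher by 1.53 ± 0.62 and 1.30 ± 0.34, and the protein kinase A anchor Akap2 by 0.89 ± 0.11, none of them past the test (adjusted p = 0.136, 0.0865 and 0.0806). Downstream, among 39 genes of calcium signalling enzymes, Plcb4, a phospholipase C that G proteins activate, rose from 5.92, 5.58 and 4.51 to 7.75, 7.50 and 6.05 (adjusted p = 0.0322), without overlap. Atp2b4, a calcium pump, was higher by 1.90, 0.77 and 0.40, and Prkd2 and Nfatc1 were lower by −0.73 ± 0.34 and −0.64 ± 0.13. These 3 did not pass.

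**Figure D3:**
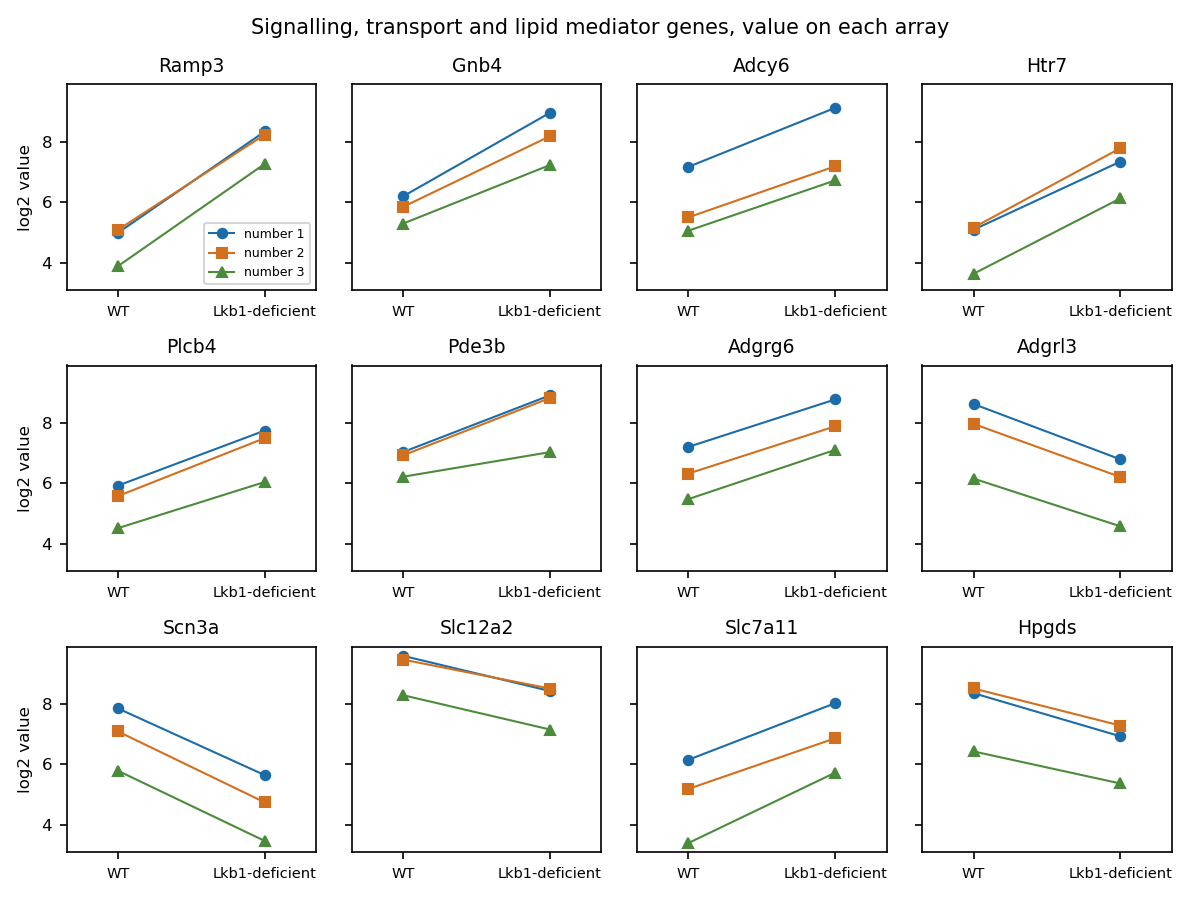
Log2 value of 12 genes of receptor signalling, transport and lipid mediators on each array, with a line joining the WT and the Lkb1-deficient array of one replicate number. Lines of the 3 numbers run nearly parallel for most genes, and within each genotype number 3 is the lowest in every panel.

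Because cyclic AMP acts on transcription through CREB, promoter windows from 250 bases before to 50 bases after the start of the gene (RefSeq, GRCm38.p6) were searched for the palindromic cyclic AMP response element TGACGTCA, which reads the same on both strands. A window was found for 7277 of the 9127 genes. The element was found for 267 of these 7277 genes (3.67%). Of all 32851 windows 1.79% held it, but this share counts windows and not genes, so the 2 shares cannot be compared directly. Of 168 genes with a window that were at least 1.5-fold higher in every number, 3 held it (1.79%), and of 35 that were lower, 0 did. The 3 windows are shown with 16 bases on each side of the element, which is in capitals, because they are the only such genes that carry it:
Fscn1, chr5:142960294-142960333, plus strand: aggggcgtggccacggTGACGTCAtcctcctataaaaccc
Tmem39a, chr16:38562803-38562842, plus strand: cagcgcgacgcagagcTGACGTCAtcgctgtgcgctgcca
Ift57, chr16:49699116-49699155, plus strand: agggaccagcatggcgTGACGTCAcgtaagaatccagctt
The element of Fscn1 lies at −45 to −38 from the start, that of Tmem39a at 5 to 12 (the start being 0) and that of Ift57 at −162 to −155. Fscn1 rose by 2.03 ± 0.36 and Tmem39a, a membrane protein of the endoplasmic reticulum, by 1.22 ± 0.16, and Ift57, a protein of ciliary transport, was higher by 1.02 ± 0.28 without passing the test. Tmem39a and Ift57 are named for the element alone, after their values were seen. The share with the element was thus no higher among genes with large increases than among all genes measured, and a match is a run of letters, not a site in use.

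Among 53 ion channel genes, the only call was the fall of Scn3a. Its log2 value was 7.85, 7.09 and 5.79 in WT DCs and 5.64, 4.74 and 3.46 in Lkb1-deficient DCs, so all Lkb1-deficient arrays were below all WT arrays, and the differences of −2.21, −2.35 and −2.33 were nearly the same (adjusted p = 0.0177). Cacna1e, an alpha subunit of voltage-gated calcium channels, was lower by −1.03 ± 0.19 and Gria3, a subunit of AMPA glutamate receptors, higher by 1.11 ± 0.34, at adjusted p values of 0.0749 and 0.108.

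Of 159 solute carrier genes, 5 rose and 1 fell. The class as a whole lay at the background, with 27.7% higher and 18.2% lower in all 3 numbers and a median of 0.03. Slc7a11, which takes up cystine in exchange for glutamate, had log2 values of 6.15, 5.18 and 3.39 in WT DCs and 8.03, 6.86 and 5.72 in Lkb1-deficient DCs. It rose in each number by 1.88, 1.68 and 2.34, although the groups overlapped (3.91-fold, adjusted p = 0.0334). The WT mean was 4.91, below the limit of 5. Slc4a8, a sodium-driven exchanger of chloride and bicarbonate, rose 3.46-fold, and Slco5a1 and Slc22a23, whose substrates are less well known, rose 2.59- and 2.54-fold. The fifth was Slc35b4, a carrier of nucleotide sugars into the Golgi and endoplasmic reticulum, which rose by 1.01 in number 1 and by nearly as much in the other 2 (2-fold, adjusted p = 0.0492). Slc12a2 fell from 9.60, 9.47 and 8.29 to 8.43, 8.51 and 7.15 (adjusted p = 0.0492), with some overlap. Of 23 ABC transporter genes none passed and none was 1.5-fold apart in every number.

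Genes of the actin cytoskeleton were more often higher than lower. Of 74 actin-binding and actin-remodelling genes, 2 rose and none fell, 39 were higher in all 3 numbers (52.7%, against 27.4% of all genes) and 11 lower, and the class median was 0.10. Scin had log2 values of 4.58, 4.86 and 4.30 in WT DCs and 8.51, 8.58 and 7.79 in Lkb1-deficient DCs, so the lowest Lkb1-deficient value was well above the highest WT value. Fscn1 encodes fascin, which bundles actin in the dendrites of mature DCs. It went from 8.44, 8.69 and 7.45 to 10.49, 10.34 and 9.83, a rise of 2.03 ± 0.36 with no overlap (adjusted p = 0.0334). Actn1, which crosslinks actin, and Dbn1, which binds filaments along their sides, were 1.84- and 1.76-fold higher, with adjusted p values of 0.0749 and 0.117. Fnbp1l, which couples membrane curvature to actin assembly and was named after its value was seen, rose 4.2-fold from 4.58, 4.21 and 3.65 to 6.57, 6.30 and 5.78 (adjusted p = 0.0177). The WT means of Scin and Fnbp1l, 4.58 and 4.15, were below 5, so these folds are over a low level.

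Myosins, kinesins and dyneins gave no call among 47 genes, with Myo1g higher by 0.74 ± 0.07. Like the actin genes they were more often higher than lower, with 24 higher (51.1%, against 27.4% of all genes) and 6 lower in all 3 numbers. Their median was 0.14. Rab GTPases with their regulators gave no call among 92 genes and SNAREs with sorting proteins none among 98, with medians of 0.01 and 0.03.

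At the cell surface and in the endosome, Cd63 was the single call among 25 tetraspanin and MS4A genes. Its log2 value was 6.82, 6.19 and 5.27 in WT DCs and 9.19, 8.34 and 7.35 in Lkb1-deficient DCs. All Lkb1-deficient arrays lay above all WT arrays, with differences of 2.37, 2.15 and 2.09 (adjusted p = 0.0177). Its class as a whole did not follow it, as 11 of the 25 were lower and 7 higher in all 3 numbers. Paired immune receptors gave no call, with 12 of 35 lower (34.3%, against 21% of all genes), 5 higher and 18 of mixed sign, and a median of −0.11. Fcrl1, an Fc receptor-like protein of B cells, was the lowest of them at −0.72 ± 0.10.

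Intracellular serpins, which protect cells from their own and foreign proteases, gave the calls among protease inhibitors. Of 15 genes measured in that class 2 rose, 9 were higher in all 3 numbers (60%, against 27.4% of all genes) and 2 lower, and the median was 0.24. Serpinb9, the inhibitor of granzyme B, had log2 values of 8.15, 7.45 and 6.60 in WT DCs and 10.16, 9.33 and 8.30 in Lkb1-deficient DCs (1.86 ± 0.15, adjusted p = 0.0305). Serpinb6b went from 8.51, 8.31 and 7.51 to 10.06, 9.88 and 8.96 (1.53 ± 0.07, adjusted p = 0.0316). In both genes the groups did not overlap. Serpinb1a, an inhibitor of neutrophil proteases, was higher by 1.82, 2.09 and 0.47 and did not pass (adjusted p = 0.23). Its highest WT value, 7.13, was on the number 3 array, where the neutrophil markers were also high.

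Annexins, which bind membrane phospholipids in the presence of calcium, were next to these in their counts. With the S100 proteins they made a class of 15 genes with 1 rise, 11 genes higher in all 3 numbers (73.3%, against 27.4% of all genes), 1 lower and a median of 0.33. Anxa3 rose from 8.00, 8.16 and 7.17 to 9.75, 9.58 and 8.62, with no overlap (2.91-fold, adjusted p = 0.0334). Anxa4 and Anxa2 were 1.9- and 1.85-fold higher and did not pass (adjusted p = 0.107 and 0.0763). The class also holds S100a8 and S100a9, which follow the neutrophil markers.

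The classes of transcription factors gave few calls, though Kruppel-like, forkhead, SOX, homeobox and ETS factors were more often lower than higher. Nuclear receptors gave 1 rise among 19 genes, that of Vdr, the receptor of the active form of vitamin D. It went from 5.31, 4.18 and 3.95 to 6.60, 5.41 and 5.39, with no overlap and differences of 1.29, 1.23 and 1.44 (adjusted p = 0.0334). Its WT level was near or under the limit of 5 set for the mean. Of 56 Kruppel-like, forkhead, SOX, homeobox and ETS factors, none passed, 23 were lower in all 3 numbers (41.1%, against 21% of all genes) and 6 higher. Klf2, which keeps lymphocytes and myeloid cells quiescent, was lower by −1.40, −0.94 and −0.46 (adjusted p = 0.212), and Klf8 was higher by 0.81 ± 0.17. Basic helix-loop-helix and bZIP factors (56 genes), zinc finger proteins with a Zfp symbol (155) and chromatin modifiers (99) gave no call. Their medians were −0.01, 0.01 and −0.04. The Polycomb-group gene Pcgf5 and the zinc finger gene Zbtb18 lay outside these classes and were named after their values were seen. They rose by 1.65 and 1.18 (adjusted p = 0.0334 and 0.04). Hdac9, a class II histone deacetylase, was lower by −0.80 ± 0.18 (adjusted p = 0.112).

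Genes of the circadian clock gave no call. Of 13 measured, 6 were lower (46.2%, against 21% of all genes), 2 higher and 5 of mixed sign, and the class median was −0.20 for the mean difference and −0.23, −0.25 and −0.28 in the 3 numbers. Ciart, a repressor of the clock, had log2 values of 8.93, 6.54 and 6.13 in WT DCs and 8.21, 5.52 and 5.25 in Lkb1-deficient DCs (−0.87 ± 0.15, adjusted p = 0.0957). Nr1d2, a nuclear receptor of the clock's second loop, was lower by −0.75 ± 0.14 and Per1, which is also a target of CREB, by −0.50 ± 0.03. Nfil3, which opposes the clock output factor Dbp, was higher by 0.47 ± 0.30. For Ciart, Nr1d2 and Per1 the spread between numbers of one genotype was wider than the difference between genotypes. The sources used here do not give the hour at which the mice were killed.

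Kinases of the MAP kinase cascades gave 1 call among 49 genes. Map4k4, which acts on JNK and on the cytoskeleton, rose from 7.99, 7.76 and 7.46 to 10.03, 9.84 and 8.96, with no overlap (1.87 ± 0.32, adjusted p = 0.0334). Spred1, an inhibitor of Ras signalling, was 2.03-fold higher (adjusted p = 0.0647). Lkb1's own pathway moved little at the level of RNA. Of 23 genes of the Lkb1 complex, AMPK and the AMPK-related kinases, none passed and the median was 0.04. Melk, an AMPK-related kinase of dividing cells, and Sik3, a salt-inducible kinase, were higher by 0.72 ± 0.19 and 0.72 ± 0.14, Nuak2 by 0.51 ± 0.17 and the CREB coactivator Crtc3 by 0.33 ± 0.15. Prkaa1, a catalytic subunit of AMPK, differed by 0.12 ± 0.09, Strada, a partner in the Lkb1 complex, by −0.01 ± 0.11 and Sik1 by −0.23 ± 0.19.

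Enzymes of lipid mediators and xenobiotics gave 1 call. Of 21 genes of eicosanoid synthesis and phospholipases A2, 1 fell and 8 were lower in all 3 numbers (38.1%, against 21% of all genes) and 2 higher. Hpgds had log2 values of 8.36, 8.52 and 6.43 in WT DCs and 6.93, 7.29 and 5.36 in Lkb1-deficient DCs, and it fell by 1.43, 1.23 and 1.06 in the 3 numbers (adjusted p = 0.0462) with overlapping groups. Hpgd, which inactivates prostaglandins, was lower by −0.41 ± 0.21, and the prostaglandin E receptor gene Ptger3, named after its value was seen, by −1.07 ± 0.26. Neither passed. Of 10 cytochrome P450 genes, none passed, 5 were lower in all 3 numbers (50%) and 1 higher, and the median was −0.22. Cyp4f37 went from 8.40, 6.96 and 6.04 to 5.97, 5.17 and 4.78 with no overlap (adjusted p = 0.0958), and Cyp4f16 from 9.10, 8.93 and 7.39 to 7.74, 7.72 and 6.74 (adjusted p = 0.127). These are members of a family of lipid hydroxylases with closely related sequences, and probes shared between them were not checked.

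Redox and amino acid genes gave no call of their own beside Slc7a11. Among 44 genes of glutathione, thioredoxin and antioxidant defence none passed, 17 were higher (38.6%, against 27.4% of all genes) and 8 lower in all 3 numbers. Txnrd1, thioredoxin reductase, was higher by 0.87 ± 0.18 and Srxn1, sulfiredoxin, by 0.57 ± 0.14, while Txnip, the inhibitor of thioredoxin, was lower by −0.63 ± 0.17. Their adjusted p values were 0.104, 0.184 and 0.166. Among 28 genes of amino acid metabolism, Arg2, the mitochondrial arginase, went from 5.57, 4.62 and 5.40 to 8.23, 6.53 and 6.55. The groups did not overlap, but the differences of 2.66, 1.91 and 1.15 were unequal and it did not pass (adjusted p = 0.122). Got1, the cytosolic aspartate aminotransferase, and Asl, which releases arginine from argininosuccinate, were 2.22- and 1.62-fold higher (adjusted p = 0.0739 and 0.112). In that class 7 were higher and 9 lower in all 3 numbers, with a median of −0.03.

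Genes that build glycans differed in a few steps. Uap1, which makes UDP-N-acetylglucosamine, and Papss2, which makes the sulfate donor of sulfotransferases, were outside the classes and named after their values were seen. Uap1 rose from 7.98, 7.97 and 6.40 to 9.39, 9.40 and 7.96 (2.76-fold, adjusted p = 0.0322). Papss2 rose 3.11-fold without overlap (adjusted p = 0.04). Of 65 glycosyltransferases and sulfotransferases none passed, with a median of 0.03. Gcnt2, which branches poly-N-acetyllactosamine chains, was higher by 1.04 ± 0.10 without overlap (adjusted p = 0.0547) and Poglut1, which glucosylates Notch, by 1.01 ± 0.16. The sialyltransferase gene St8sia6 was lower by −1.15 ± 0.27 (adjusted p = 0.0837). B3gnt5, which starts lacto-series glycolipids, was higher by 1.43 and 2.16 in numbers 1 and 2 and by 0.17 in number 3.

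Lipid-binding genes gave 2 rises among 35. Fabp5, which carries fatty acids and retinoic acid, had log2 values of 6.01, 6.32 and 4.90 in WT DCs and 7.89, 7.67 and 6.59 in Lkb1-deficient DCs (1.64 ± 0.27, adjusted p = 0.0364), with no overlap. Lrp8, a receptor of apolipoprotein E and reelin, rose 2.15-fold (adjusted p = 0.0492). The related Fabp4 and the scavenger receptor gene Msr1 were higher by 0.81 ± 0.22 and 0.88 ± 0.37 and did not pass. Fatty acid oxidation and peroxisome genes gave no call among 40, with 19 higher (47.5%) and 4 lower in all 3 numbers and a median of 0.11, and Slc25a20, which carries acylcarnitines into mitochondria, was the highest at 0.73 ± 0.20.

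Mitochondrial genes gave 1 call and small medians. Of 71 genes of oxidative phosphorylation, 35 (49.3%, against 27.4% of all genes) were higher and 3 lower in all 3 numbers. Of 62 mitochondrial ribosomal proteins 20 (32.3%) were higher, 0 lower and 42 of mixed sign, which is close to the share over all genes on the higher side. The classes had medians of 0.13 and 0.11. The sole call was Cox6a2, a subunit of cytochrome oxidase best known from muscle. It rose from 5.11, 6.07 and 6.11 to 6.95, 7.93 and 7.49 with no overlap (3.23-fold, adjusted p = 0.0334). Cox6a2 is also a marker of plasmacytoid DCs, and that list of 9 genes had a mean of 6.02 to 6.55 on the WT arrays and 6.67 to 6.87 on the Lkb1-deficient arrays. Without Cox6a2 the other 8 genes had means of 6.13, 6.51 and 6.61 on the WT arrays and 6.63, 6.74 and 6.62 on the Lkb1-deficient arrays. The gap was thus widest in number 1 and nearly absent in number 3. Of the 9 genes, Cox6a2 included, 5 were higher and 0 lower in all 3 numbers. Their median difference was 0.22, and it was 0.43, 0.31 and 0.03 in the 3 numbers. Siglech, the marker that defines those cells, differed by 0.22 ± 0.10. The part of these cells was not tested. Without Cox6a2, the next highest subunit was Ndufa1 at 0.35 ± 0.15. Cytosolic ribosomal proteins showed no such lean, with 4 of 52 higher and 16 lower in all 3 numbers and a median of −0.02, and splicing factors had 31 of 135 higher and 30 lower.

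Of the classes with at least 10 genes, cell division and DNA replication had the highest share of genes with one direction. Of 66 genes, none passed the test, yet 54 (81.8%, against 27.4% of all genes) were higher and 1 lower in all 3 numbers. The median difference was 0.33, and it was 0.46, 0.20 and 0.29 in numbers 1, 2 and 3. Uhrf1, which maintains DNA methylation in S phase, was higher by 1.25, 0.50 and 0.73, and Gins3, a part of the replicative helicase, by 0.99, 0.68 and 0.79. The mitotic genes Bub1 and Hmmr were higher by 0.60 ± 0.11 each. Uhrf1, Gins3, Bub1 and Hmmr had adjusted p values of 0.107 to 0.203. When only the probe sets above 5 were fitted, 20 of the 66 passed as higher and 0 as lower. The B and T cell lists, which can hold dividing cells, had medians of −0.35 and 0.09. In number 1, where the shift was largest, their medians were 0.26 and 0.25. In numbers 2 and 3 they were −0.55 and −0.65 for B cells and −0.18 and 0.01 for T cells. The part of these cells in the shift was not tested. Cdkn1a, the p21 inhibitor of cyclin-dependent kinases, rose from 9.24, 8.86 and 7.04 to 10.45, 10.08 and 8.06 (2.22-fold, adjusted p = 0.0443), although the groups overlapped. Its class of 34 genes had 12 higher and 12 lower in all 3 numbers, and among them the death receptor gene Fas was 2.39-fold higher (adjusted p = 0.0591), Gadd45b was higher by 0.93 ± 0.41 and Cdkn2b by 0.73 ± 0.19.

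**Figure D4:**
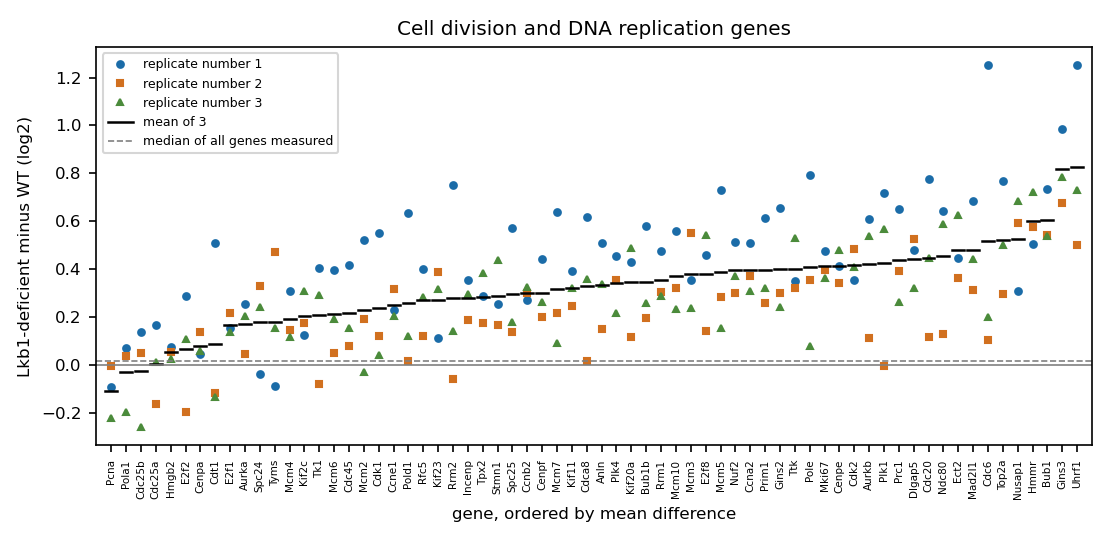
Lkb1-deficient minus WT difference in the log2 value of 66 cell division and DNA replication genes in each replicate number (symbols) and its mean (bar), ordered by the mean. Nearly all means lie above the median gene (dashed, 0.02), and number 1 has the largest median, 0.46.

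Genes of nutrient and growth factor signalling differed singly. Castor2, a regulator of mTORC1 of the arginine-sensor family, rose from 7.28, 6.42 and 5.13 to 8.82, 8.04 and 6.59 (2.9-fold, adjusted p = 0.0316), and Phlpp1, a phosphatase that inactivates Akt, rose 2.28-fold (adjusted p = 0.0428). Both lay outside the classes and were named after their values were seen. Among 48 phosphoinositide kinases and phosphatases no gene passed. Pik3r6, a regulatory subunit of phosphoinositide 3-kinase gamma, was higher by 0.95 ± 0.25, and Pik3ip1, an inhibitor of phosphoinositide 3-kinase, was lower by −0.71 ± 0.11. A list of 28 genes known as targets of FoxO factors was written after the values were seen. None of it passed, 15 were lower (53.6%, against 21% of all genes), 3 higher and 10 of mixed sign, and the median was −0.15. Irs2 was lower by −0.79 ± 0.21 and Il7r higher by 1.06 ± 0.30.

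Several classes of housekeeping genes had medians close to that of all genes. Chaperones (71 genes), lysosome and autophagy genes (87), genes of the unfolded protein and integrated stress response (40), translation factors with tRNA synthetases (89) and ubiquitin ligases (169) had medians of −0.04 to 0.08. In all 3 numbers, 37 translation genes were higher (41.6%, against 27.4% of all genes) and 13 lower, and 25 chaperones higher (35.2%) and 11 lower. The counts were 21 and 22 for lysosome and autophagy, 9 and 12 for the stress response and 38 and 44 for ubiquitin ligases. The only calls in these classes were Slc7a11, which is also a target of the stress response, and Rnf157, a ubiquitin ligase, which rose 2.44-fold (adjusted p = 0.0334). Ddit3, a defining target of the stress response, was lower by −0.63 ± 0.10 (adjusted p = 0.146). Small nucleolar RNAs had medians of −0.25, −0.27 and 0.21 in the 3 numbers and thus no common direction, and of 1446 olfactory, vomeronasal and taste receptor genes on the array 16 were above 5 and none passed.

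**Figure D5:**
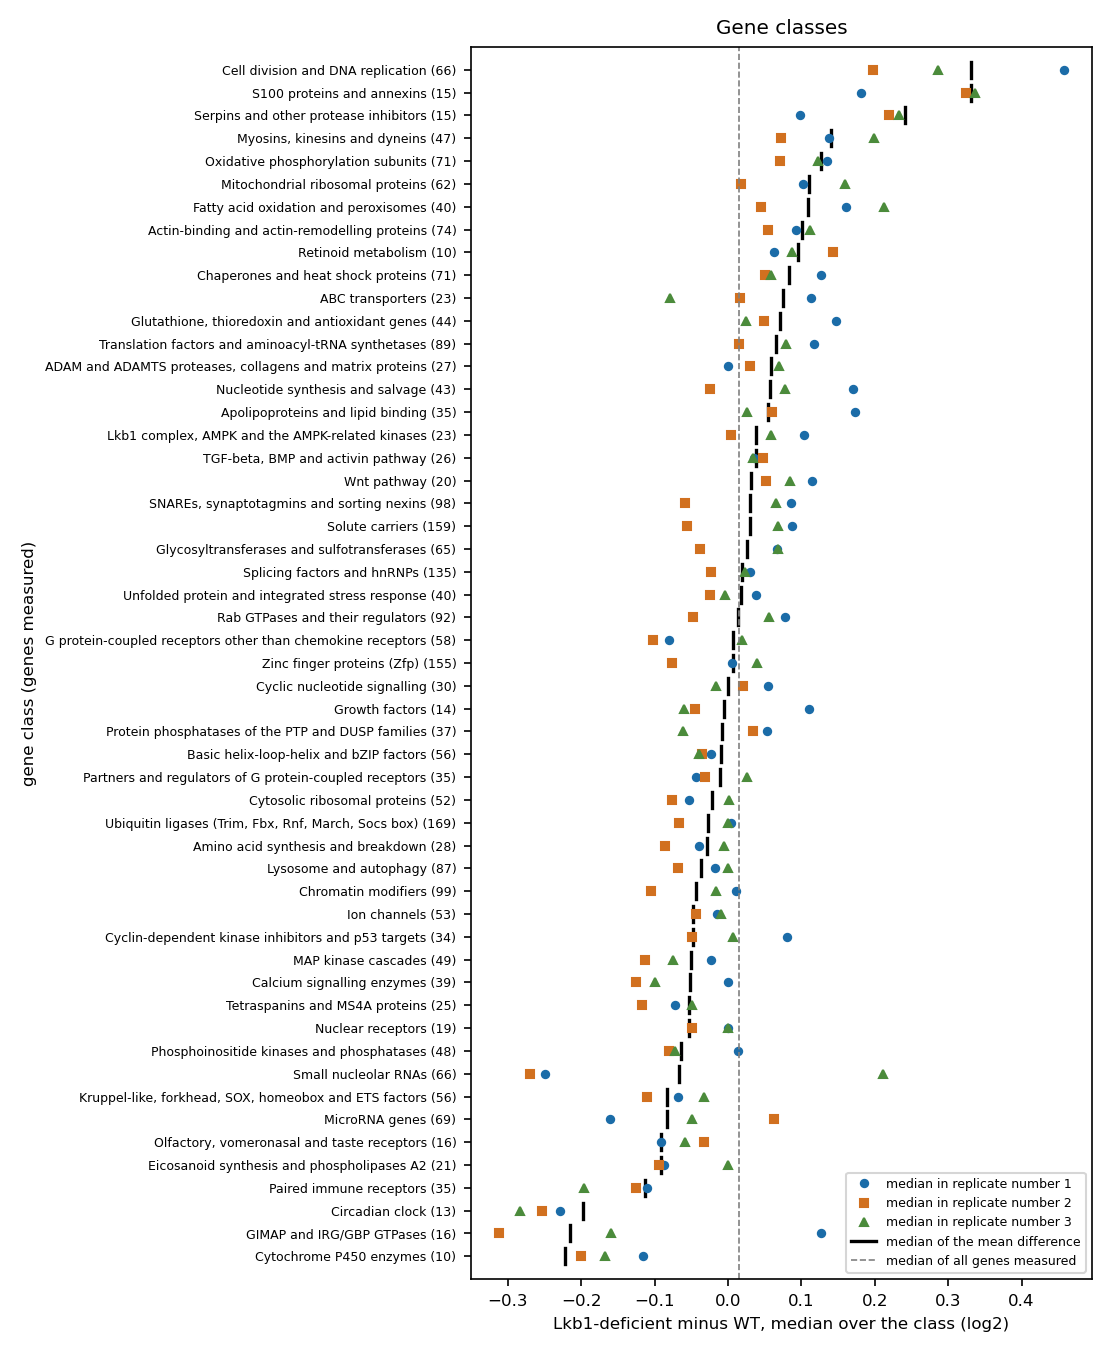
Median Lkb1-deficient minus WT difference in the log2 value of gene classes with at least 10 genes measured, by replicate number (symbols) and for the mean difference (bar), with the number of genes in brackets. Most classes lie within 0.1 of 0, with cell division highest at 0.33 and cytochrome P450 enzymes lowest at −0.22.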

How the data were processed

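The deposited values were log2 probe set signals of Affymetrix Mouse Gene 2.0 ST arrays, which the authors analysed in GeneSpring GS 11. MAS5 is named in the submitters' notes with no version, and how arrays were normalized to each other is not given in the sources used here. Values were used as deposited. They ran from 0.15 to 13.39, and 2306, 1220 and 3422 of 41345 probe sets had equal values on both arrays of numbers 1, 2 and 3. Gene symbols came from GEO's platform annotation: 23521 probe sets had 1 symbol, 1820 several and 16004 none. Depth has no meaning for arrays.

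Differences were tested in limma 3.58.1 (R 4.3.3) with the replicate number as a block and p-values adjusted by Benjamini-Hochberg over every probe set. Neither the labels nor the methods say that a number marks a shared day or litter. The pairing was taken from the values: deviations from the group means correlated at 0.85, 0.80 and 0.74 between same-numbered arrays and at −0.61 to −0.13 between others, against a limit of 0.1. The deviations of a genotype sum to 0, so the negative values between others are not separate evidence of pairing. The p-values measure the spread of the Lkb1-deficient minus WT differences between replicate numbers, which may be technical. Variation shared by the arrays of a replicate number is taken out by the block and does not enter them.

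A gene with several probe sets was described by the one with the highest mean. Named genes were the 12 largest mean differences in each direction among those past the test with 1 sign in all 3 numbers, filled where fewer passed from those at an unadjusted p under 0.05, up to 4 members of a class with the largest differences of 1 sign, any member of the Lkb1 list, and Stk11. Other genes outside this rule, cell type and sex markers aside, are said in the text to be named after their values were seen. Slc35b4 was added as a called solute carrier. Flrt3, Gfpt2, Dll4, Egr1 and Egr2 also lie outside the rule and are not marked so where they are named. Members and lists were chosen with earlier results of these data known, and 38 measured symbols that matched a class by spelling alone were removed after values were seen. The fit was run on simulated data with an additive effect of the replicate number and equal noise for every probe set. Because these conditions were built in, that run checks the code and not whether the block suits these arrays. Control and LPS arrays were not used, and 1 of the 55 classes is not reported here.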

Additional observations from a re-analysis of the deposited data

How the results depend on the processing

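The number of probe sets past the test, 85 higher and 10 lower, rested on the replicate block and on 3 numbers. Without the block 4 were higher and 0 lower (124 and 25 at an unadjusted p under 0.05), and with any number left out 0 passed in either direction in limma (1411 to 1730 higher and 1771 to 1976 lower at an unadjusted p under 0.05). Leaving out a single array gives the same fit as leaving out its number, since its partner then carries no difference. The methods' t-test gave 0 and 0 after adjustment (80 and 31 unadjusted, 68 and 17 of them at least 1.5-fold apart), as did its paired form (1759 and 1926, with 400 and 235). With 16 added to the linear values 12 were higher and 0 lower, with a trended and robust prior 260 and 108 (70.7% higher, against 89.5%), and with only the probe sets above 5 fitted 685 and 387 (63.9% higher). Of 44 named genes past the test, Pcgf5 and Zbtb18 left aside, 41 kept their call under quantile normalization and 44 with array medians aligned. With the trended prior 44 kept it and with 16 added 8 did.

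Of the genes 1.5-fold apart in every number, 208 higher and 48 lower, 84 and 8 were 2-fold apart, 25 were lower with 16 added, and 57 to 122 were lower with a number left out, the highest without number 3. Class medians moved by less than their spread between numbers in 48 or more of 56 lists under each setting, and which genes were added or lost was not listed. Small differences changed sign with a number left out: Cd3e ran from −0.18 to 0.38, Cd3g from −0.10 to 0.30, Eif2s3y from −0.17 to 0.0014, Itgax from −0.035 to 0.14 and Strada from −0.074 to 0.036, and Strada was at 0.024 with medians aligned.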

Other observations

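Of the 95 probe sets that passed the test, 20 lay outside the described set because their mean was 5 or less or they had no single symbol. The 4 that fell had no symbol. The largest of the 16 that rose was Flrt3, a membrane protein of cell adhesion, at 3.87 ± 0.62 over a WT mean of 2.65 (adjusted p = 0.0305), and it passed without the block as well. Gfpt2, which makes glucosamine-6-phosphate at the start of the pathway to which Uap1 belongs, went up by 1.93 ± 0.37 from WT values of 4.78, 4.12 and 3.16 (adjusted p = 0.0389). Dll4, a Notch ligand, went from 4.86, 4.22 and 3.74 to 6.19, 5.47 and 4.97 (adjusted p = 0.0334), and the WT values of both genes were near or below the limit of 5.

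Genes known from regulatory T cells and from activated DCs were looked at after their values were seen. Tnfrsf4 (OX40) rose from 6.11, 5.92 and 5.33 to 7.69, 7.42 and 6.63 without overlap (adjusted p = 0.0334). Il2ra (CD25) was higher by 1.66 ± 0.44 (adjusted p = 0.0742), Tnfrsf18 (GITR) by 1.02 ± 0.12 (adjusted p = 0.0609) and Foxp3 by 0.55 ± 0.10 (adjusted p = 0.18), while Cd3e and Cd3g differed by 0.09 ± 0.56 and 0.09 ± 0.40. The part of T cells in these values was not tested.

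The immediate-early genes Egr1 and Egr2 were lower by −1.18 ± 0.35 and −1.19 ± 0.40 in Lkb1-deficient DCs, in all 3 numbers, without passing the test (adjusted p = 0.104 and 0.112).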
